A study of Mus musculus with 107 samples.

Results

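The 10 genes described here, of 21564 gene symbols counted, are markers of granulosa cells, which line the ovarian follicle, and of cumulus cells, the granulosa cells that surround the oocyte. They are Serpine2, Amh, Inha, Inhba, Cyp19a1, Cyp11a1, Has2, Ptx3, Tnfaip6 and Fshr, chosen by name as a measure of attached cells or of transcripts of the egg itself, and each was found in the count table. They were followed in 107 single mouse eggs sequenced by Smart-seq2, which copies polyadenylated RNA of 1 cell along its full length. Immature oocytes came from C57BL/6J females of 2 to 3 months given 5 IU of the gonadotropin PMSG 48 h before collection, were handled in 2.5 µM milrinone, which blocks meiotic resumption, and matured in culture without it. There were 29 wildtype (WT) eggs, 61 eggs of mos -/- females named M1 (22), M2 (18) or M3 (21), and 17 activated wildtype eggs. The activated eggs were kept for 2 h in calcium-free medium with 10 mM strontium chloride, starting 15 to 16 h after breakdown of the germinal vesicle. All eggs were taken at 38 to 40 h after that breakdown. The labels do not define M1, M2 and M3, do not tie eggs to females and do not say how surrounding cells were removed.

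Granulosa cells nourish the oocyte and make the ovary's estrogen, inhibins, activins and anti-Mullerian hormone under the control of follicle-stimulating hormone. Around ovulation, cumulus cells lay down a matrix of hyaluronan held together by secreted proteins, the process called cumulus expansion. Transcripts of these genes in a library of 1 egg can come from cells that stayed attached, from free RNA or from the egg, and the counts alone do not separate these sources. Values are CPM, counts per 1000000 counts of an egg or of a group's sum, and a relative level is not an amount per egg.

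All 10 are protein-coding genes in GENCODE M21 (GRCm38). Serpine2 (ENSMUSG00000026249) covers chr1:79794197-79861180 and Cyp19a1 (ENSMUSG00000032274) covers chr9:54165937-54268110, both on the minus strand and with no overlapping gene. Exons of Cyp11a1 share bases with Gm17322 and exons of Has2 share bases with its antisense gene Has2os, so counts of these 2 members are uncertain in a library that does not mark strand. Many nuclear receptors bind DNA at sites that hold the half-site AGGTCA, often with further bases that were not searched for here. RefSeq promoter windows (GRCm38.p6, 250 bases before to 50 after a start) were at hand for 8 members, and 4 of them held AGGTCA on either strand. Over all genes with such a window the share was 18.1%, and the members' windows hold 4 matches in 11. The sites of 30 bases are shown because they are what these 4 members share in sequence, with the half-site or its complement in capitals, 5′ to 3′ along the gene's strand.
Inha: ttggggattggcAGGTCAactttgaagagt
Cyp11a1: gaggaaggggggAGGTCAccgctccatcag
Cyp19a1: agttggaatttgTGACCTctagaacccaag
Tnfaip6: gagaatacatgcTGACCTcacagccgaaaa
These sites lie at chr1:75507528-75507557 (plus strand) for Inha, chr9:58014912-58014941 (plus) for Cyp11a1, chr9:54268228-54268257 (minus) for Cyp19a1 and chr2:52038036-52038065 (plus) for Tnfaip6. The site of Cyp19a1 belongs to the most distal of its 3 starts and that of Cyp11a1 to 1 of its 2 starts. Serpine2, Inhba, Ptx3 and Fshr held no match in these windows. A match describes the letters only, and the 4 members with a match ranged in these eggs from the commonly counted Cyp19a1 to the nearly absent Tnfaip6.

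Totals ranged from 2609358 to 9132471 counts per egg in batch 1 (14 eggs) and, apart from 3 mutant eggs of 44, 582 and 1526 counts, from 61689 to 1551993 in batch 2. The 3 shallow eggs stay in the sums and are left out of values per egg, which cover 104 eggs. Mos, the gene named by the genotype, had counts in mutant as well as wildtype eggs, and the labels do not give the altered stretch of the gene. Its raw sums were lower in each mutant group than in wildtype eggs not given strontium. In batch 1 they were 6.52 CPM in wildtype, 5.72 in M1, 0.868 in M2 and 1.45 in M3. In batch 2 they were 31.6, 13.3, 8.15 and 3.67 in the same order. The activated wildtype eggs were at 5.33 CPM, below M1 and M2 of that batch. Of the 172 Mos counts of wildtype in batch 2, 62 were in egg 45, and 10 of 24 eggs held any. The 4 M1 eggs of batch 1 spanned 0.548 to 17.9 CPM of Mos against 2.52 to 11.2 in wildtype. The library labelled M1 egg 6 was the highest of those with 110 Mos counts, the library labelled M1 egg 21 held 92 of the 137 Mos counts of M1 in batch 2, and M1 egg 11 held 0. Fitted folds of Serpine2, Cyp19a1 and Inha that involve M1, and the M1 sums they rest on, are therefore also given without eggs 6, 11 and 21. All 12 oocyte markers checked (such as Zp3, Gdf9 and Zar1) were counted in most eggs, together at 2642 to 49226 CPM per egg.

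The members fell into 2 kinds by how many eggs held them. Serpine2, a secreted inhibitor of thrombin and plasminogen activators made by cumulus cells, had counts in 105 of 107 eggs. Cyp19a1, the aromatase that makes estrogen, had counts in 91. The other 8 were rare: Inha was counted in 24 eggs, Cyp11a1 in 21, Has2 in 19, Inhba in 11, Amh in 4, Fshr in 3, Tnfaip6 in 1 and Ptx3 in 0. Serpine2 alone supplied 91.1% of the members' counts in the 104 eggs. Per kilobase of exon, over all eggs, the level of Serpine2 was 27.98 CPM, that of Cyp19a1 3.82 and that of Inha 1.10. Each other member was at 0.516 (Amh) or less on that scale. With each egg thinned to 60000 counts, Serpine2 remained in all but 1 of 104 eggs and Cyp19a1 in 61, while Inha remained in 6, Has2 in 4, Cyp11a1 in 3, Amh in 2, Inhba in 1 and the other three in 0.

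Serpine2 was at like levels in most eggs of batch 1, none of which were given strontium. Its 5 wildtype eggs held 216, 349, 279, 198 and 284 CPM. The 4 M1 eggs held 547, 115.1, 231 and 260 CPM, the 2 M2 eggs 259 and 283, and the 3 M3 eggs 199, 240 and 206. All 3 mutant groups overlapped the wildtype eggs, and M1 held both the highest egg (egg 6) and the lowest (egg 7). In batch 2 the 24 wildtype eggs ran from 43.6 through a median of 182 to 498 CPM. The 16 M1 eggs ran from 95.4 through 210 to 638 (egg 21), the 16 M2 eggs from 78.9 through 165 to 386, and the 17 M3 eggs from 57.3 through 202 to 294. The 17 activated eggs were lower, from 33.5 through 69.2 to 134.8 CPM.

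**Figure D1:**
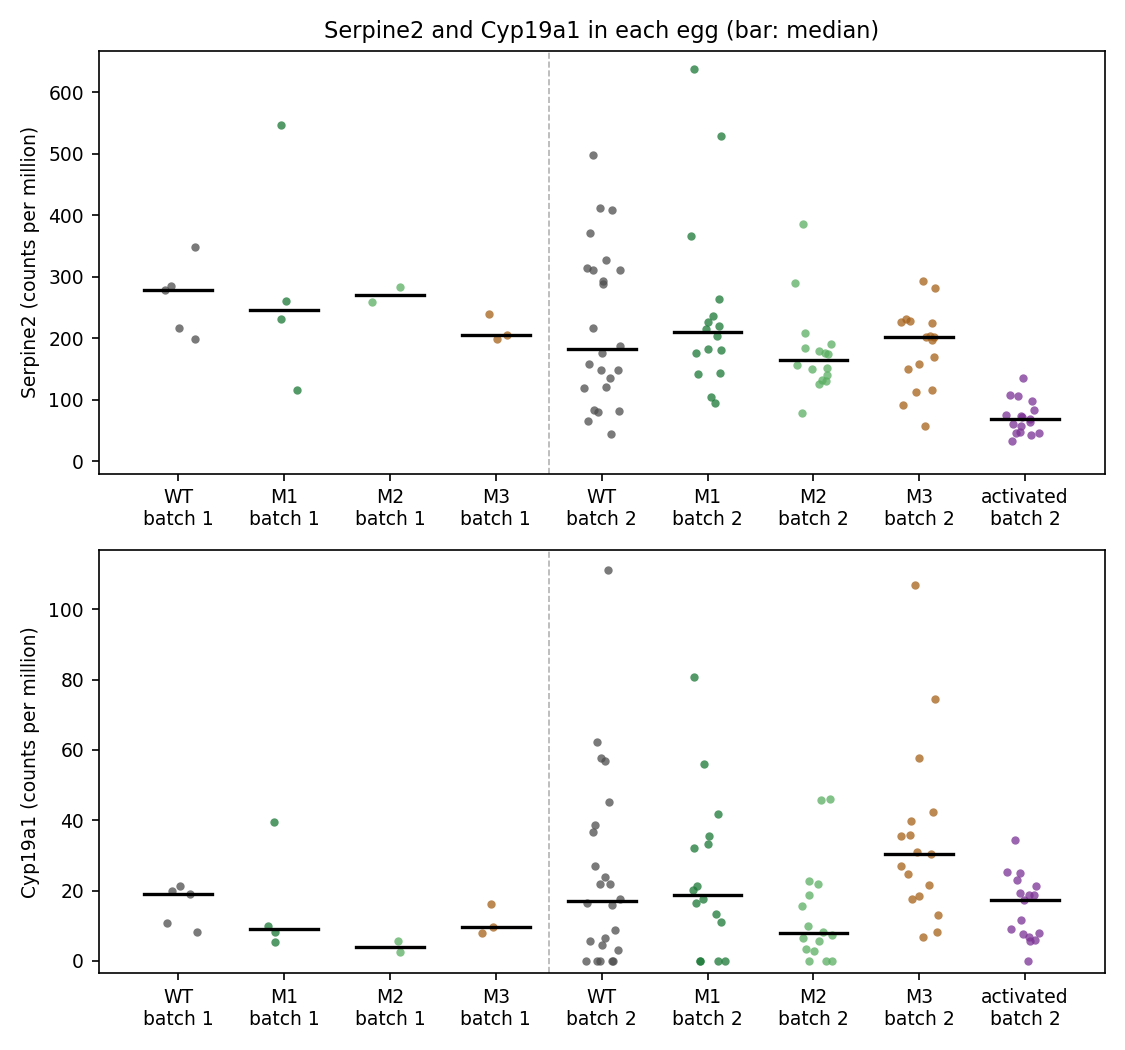
Serpine2 (top) and Cyp19a1 (bottom) in CPM for each of the 104 eggs of at least 10000 counts, by group and batch, with a bar at each group's median. Activated eggs sit at 33.5 to 134.8 CPM of Serpine2 while most eggs of batch 2 not given strontium lie higher, and for Cyp19a1 the groups overlap.

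Among the 24 wildtype eggs of batch 2, 17 were above the highest activated egg and 2 were below the activated median. Of the 16 M1 eggs, 14 were above the highest activated egg, as were 12 of 16 M2 eggs and 13 of 17 M3 eggs. The groups overlap, since only 2 of 17 activated eggs lay under the lowest wildtype egg. At an equal depth of 60000 counts, the median egg held 4 Serpine2 counts after activation and 10 in wildtype of batch 2.

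Sums of counts per group and batch were compared across all genes with edgeR's quasi-likelihood test. After activation Serpine2 fell by 2.01 ± 0.32 (SE) on the log2 scale against wildtype, with a Benjamini-Hochberg adjusted p of 5.12e-04. The raw sums of batch 2 were 70.3 CPM in activated eggs (95% Poisson interval 65.9 to 74.9) and 247 in wildtype eggs (234 to 260). These intervals, like all intervals here, cover counting error only. The same comparison from medians over eggs was smaller, a log2 ratio of -1.39, and without a batch term the fold was -2.20 with an adjusted p of 0.0533 in edgeR, above the threshold of 0.05. Activated eggs form 1 sum on a plate of their own, so plate and treatment cannot be told apart, and that sum is assumed to vary like the others.

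Of the 10 members, 7 passed the filter on low counts in this comparison and 1, Serpine2, was called. Over all 13832 genes tested 13% were called, 7.33% lower and 5.66% higher after activation. Cyp19a1 did not pass: its log2 fold was -1.17 ± 0.53 with an adjusted p of 0.173 in edgeR. Its raw sums were 16.7 CPM in activated eggs and 23.2 in wildtype of batch 2, and its medians per egg were 17.4 and 17.0 CPM. For Inha, Inhba, Cyp11a1 and Has2 the standard errors of the fold ran from 1.96 to 2.38, so that changes of several fold were not detectable, and Amh was at 0 in both groups.

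Serpine2 belongs to a set of 8 serpins and plasminogen activators, of which 5 were tested and 2 fell after activation. The other one was Plat, tissue plasminogen activator, a protease of the oocyte that Serpine2 inhibits. Plat had raw sums of 122 CPM in activated and 385 in wildtype eggs of batch 2 and a log2 fold of -1.82 ± 0.37 (edgeR adjusted p = 0.0035). Oocyte markers also moved: 5 of 12 fell after activation and 0 rose, among them Zar1 (-3.60 ± 0.31), Gdf9 (-2.54 ± 0.29) and Zp3 (-2.99 ± 0.40). The median log2 fold of those 12 was -0.59 against 0.15 over all genes. Of 28 other granulosa and cumulus genes, 17 were tested, 1 rose and 0 fell, with a median log2 fold of 0.62. The one was Gatm, a creatine synthesis enzyme, with 66 counts over the activated eggs and 0 in wildtype eggs of either batch. Of the cumulus expansion genes (7 tested) 1 rose, Egfr, the receptor for the ovulatory EGF-like signals (2.98 ± 0.63, edgeR adjusted p = 0.00718). Of the genes of gonadotropin receptors and cyclic AMP (11 tested) 1 fell, Pde3a, the oocyte phosphodiesterase that milrinone inhibits (-1.80 ± 0.33, adjusted p = 0.00126). The steroid synthesis genes (12 tested) and the anti-Mullerian hormone pathway (8) had 0 called, with 3 and 1 at an unadjusted p under 0.05. Over all genes 13% were called. Apart from the oocyte markers, these lists are too small to be set apart from that share.

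No member passed the test between mutant and wildtype eggs. In batch 1 these eggs shared a plate, but in batch 2 the wildtype eggs were on a plate of their own. Plate and genotype cannot be told apart there. Depth differed too, with median totals in batch 2 of 207420 counts in wildtype and 503731.5 to 756480 in the mutant groups. Of 7 members tested 0 were called, 1 had an unadjusted p under 0.05 and DESeq2 also called 0. Over all genes 9.38% were called, and among 7 members 0 calls cannot be told apart from that share. For Inha, Cyp11a1 and Has2 the standard errors of the fold ran from 1.35 to 1.62, so that changes of several fold were not detectable. Amh, at 0 in wildtype, had no usable standard error. Serpine2 had a log2 fold of -0.44 ± 0.19 (edgeR adjusted p = 0.157), the mean of M1, M2 and M3 against wildtype, and without M1 eggs 6, 11 and 21 it was -0.56 ± 0.18 (adjusted p = 0.0655). Within batches the raw sums of Serpine2 in batch 1 were 274 CPM in wildtype, 284 in M1, 271 in M2 and 216 in M3. In batch 2 they were 247, 246, 174 and 182 CPM in the same order. Without egg 6 the M1 sum of batch 1 was 204 CPM, and without eggs 11 and 21 that of batch 2 was 202. By these sums M2 and M3 lay below wildtype in both batches, M2 only slightly in batch 1 (271 against 274 CPM). M1 did so without these 3 eggs. With them, M1 did so on the TMM scale of the fit (271 against 308 CPM in batch 1 and 232 against 287 in batch 2). With eggs thinned to equal depth the mutant fold of Serpine2 was -0.15 ± 0.23 (edgeR adjusted p = 0.726). Over 19 alternatives the fold ran from -0.63 to -0.15. Medians per egg did not all follow the sums. In batch 2 they were 210 CPM in M1 and 202 in M3, above wildtype (182), and 165 in M2. In batch 1 they were 279 in wildtype, 246 in M1, 271 in M2 and 206 in M3.

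Cyp19a1 had a mutant log2 fold of -0.50 ± 0.32 (edgeR adjusted p = 0.389), which was -0.71 ± 0.31 without these eggs (adjusted p = 0.179). In batch 1 its 5 wildtype eggs held 19.2, 19.8, 21.4, 10.8 and 8.32 CPM. The 4 M1 eggs held 39.5, 8.20, 9.79 and 5.48 CPM, the 2 M2 eggs 2.51 and 5.62, and the 3 M3 eggs 7.96, 16.0 and 9.67. Both M2 eggs were below each wildtype egg, and M1 egg 6 was above all. In batch 2 the medians were 17.0 CPM in wildtype (0 to 111), 18.9 in M1 (0 to 80.9), 7.85 in M2 (0 to 46.03) and 30.4 in M3 (6.86 to 107), with wide overlap. Raw sums of M3 were below wildtype in batch 1 (11.5 against 15.2 CPM) and above it in batch 2 (39.4 against 23.2).

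**Figure D2:**
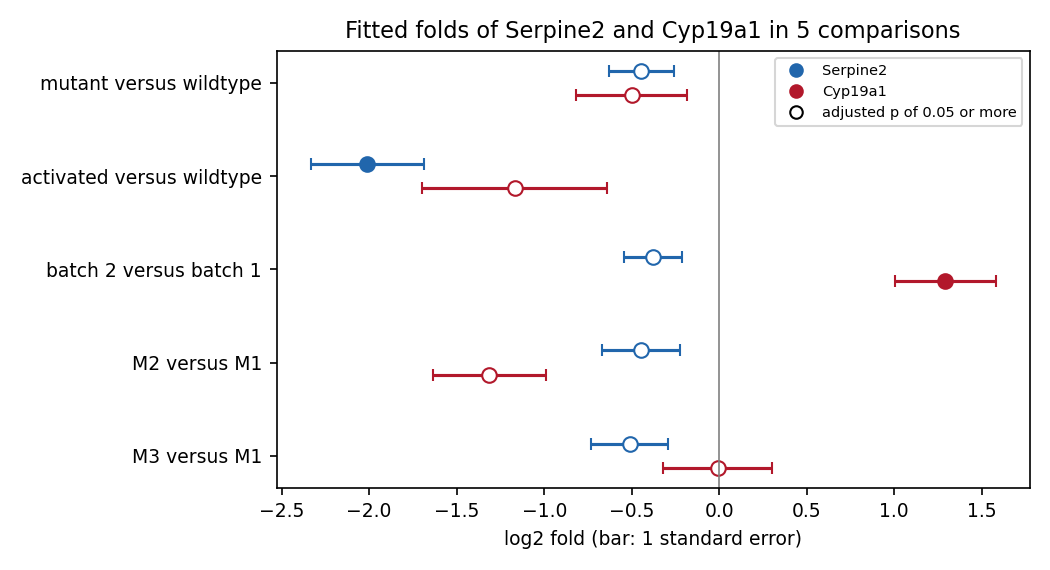
Fitted log2 folds of Serpine2 and Cyp19a1 in 5 comparisons, with bars of 1 standard error and filled points where the edgeR adjusted p was under 0.05. Serpine2 is filled for activation (-2.01) and Cyp19a1 for batch (1.29).

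Among the lists near these genes, 2 of 12 tested genes of steroid synthesis fell in mutant eggs: Por, the reductase that serves aromatase and other P450 enzymes (-1.12 ± 0.25, edgeR adjusted p = 0.00957), and Scarb1, the receptor that takes up cholesterol (-0.71 ± 0.21, adjusted p = 0.0392). The median of that list was -0.29 against 0.062 over all genes. Of 7 tested cumulus expansion genes 1 rose, again Egfr (2.38 ± 0.47, adjusted p = 0.00716), in a comparison that shares its wildtype sums with that of activation. Egfr had 5.30 raw CPM in wildtype and 11.2 to 26.4 in the mutant groups of batch 1, and 2.94 against 50.3 to 55.4 in batch 2. Of 11 tested genes of gonadotropin receptors and cyclic AMP 1 fell, Pde3a (-0.80 ± 0.19, adjusted p = 0.0106). The inhibin and activin pathway (12 tested), the anti-Mullerian hormone pathway (8), the other granulosa and cumulus genes (17) and the serpins and plasminogen activators (5) had 0 called in mutant eggs. At an unadjusted p under 0.05 these 4 lists had 1, 0, 2 and 2 genes. The oocyte markers moved here too, with 5 of 12 lower and 2 higher. Por, Scarb1, Egfr and Pde3a kept their calls and directions without M1 eggs 6, 11 and 21. Over all genes 9.38% were called in either direction. The lists of steroid synthesis, cumulus expansion and cyclic AMP genes are too small to be set apart from that share. For these genes too, plate and genotype cannot be told apart in batch 2.

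Between the 3 mutant groups, sums per group and plate were compared, with the plate as a term. M2 against M1 and M3 against M1 had 0 called among 11009 genes each by edgeR (0% and 0%), with 690 and 866 genes at an unadjusted p under 0.05, and DESeq2 called 28 and 60. Of the members, 3 passed the filter, 0 were called and 1 in each comparison had an unadjusted p under 0.05. Cyp19a1 was at 43.3, 26.3 and 15.5 raw CPM in M1 on plates 1 and 2 of batch 2 and in batch 1, and at 20.5, 14.6 and 4.09 CPM in M2. Without eggs 11, 21 and 6, the M1 sums were 18.2, 28.8 and 8.13 CPM, and that of plate 1, where egg 11 held 80 of 107 counts, was then below M2. Its M2 against M1 log2 fold was -1.31 ± 0.32, with an adjusted p of 0.662 by edgeR and 0.0306 by DESeq2, and without M1 eggs 6, 11 and 21 it was -0.67 ± 0.33. Serpine2 had a log2 fold of -0.51 ± 0.22 in M3 against M1 (edgeR adjusted p = 0.610) and of -0.45 ± 0.22 in M2 against M1 (adjusted p = 0.800), which were -0.21 ± 0.23 and -0.13 ± 0.23 without these M1 eggs.

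Batch 2 differed from batch 1 in 1 of 7 members tested, against 17.5% of all genes. Cyp19a1 rose by 1.29 ± 0.29 on the log2 scale (edgeR adjusted p = 0.0045), and by 1.45 ± 0.28 without M1 eggs 6, 11 and 21 (adjusted p = 0.00205). Its raw sums were 1.53 times higher in batch 2 for wildtype, 1.96 for M1, 4.41 for M2 and 3.42 for M3. The call was lost without the M2 sum of batch 1 or that of batch 2, where the fold was 1.01 in both cases. Fewer genes were called over all in these 2 fits as well, and the part of M2 in the call was not tested. With eggs thinned to equal depth the fold of Cyp19a1 was 0.30 ± 0.48. The median wildtype egg went the other way, from 19.2 CPM in batch 1 to 17.0 in batch 2. Serpine2 had a fold of -0.38 ± 0.17 (adjusted p = 0.130), which was -0.37 ± 0.16 without the 3 M1 eggs. Depth differed between the batches and cannot be told apart from batch.

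The 8 rare members were counted together in few eggs. Of 104 eggs, 52 held at least 1 of them, 22 at least 2 and 7 at least 3. At the thinned depth of 60000 counts 13 eggs (12.5%) held any, and by group of batch 2 these were 3 of 24 wildtype, 3 of 16 M1, 0 of 16 M2, 4 of 17 M3 and 1 of 17 activated eggs. The median egg held 0.061 CPM of the 8 together and the highest 313, and 11 eggs held over 10 CPM.

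**Figure D3:**
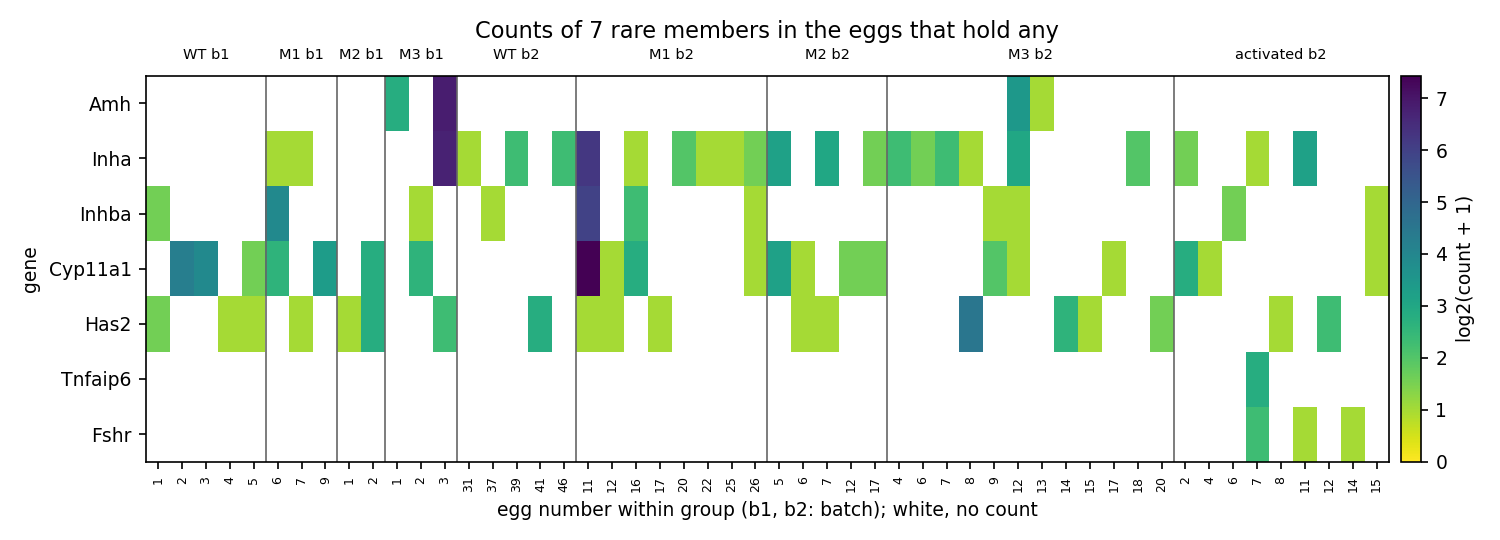
Counts, as log2(count + 1), of 7 rare members (rows) in the 52 eggs with at least 1 of them (columns, by group and batch). White marks no count, and Ptx3, at 0 in every egg, is not drawn. Dark cells for several genes at once stand in M1 egg 11 and M3 egg 3.

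Hormone genes of growing follicles came mainly from single eggs. Amh, anti-Mullerian hormone, which restrains the recruitment of follicles, had 131 counts in all, of which 87.0% were in M3 egg 3 of batch 1. The others were 10 in M3 egg 12, 6 in M3 egg 1 and 1 in M3 egg 13, so that the 4 eggs with Amh were all M3. In wildtype eggs the count was 0, where the floor of 3 counts is 0.0829 CPM in batch 1 and 0.552 in batch 2. Inha, the inhibin alpha subunit, had 246 counts in all, with 104 in M3 egg 3 and 74 in M1 egg 11. Inhba, the beta A subunit of activin A and inhibin A, had 62 of its 90 counts in M1 egg 11 and 14 in M1 egg 6. No other egg held over 4 counts of Inhba.

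In the 3 tests against wildtype or between batches, Inha was not called. Its batch fold was 4.53 ± 1.76 (edgeR adjusted p = 0.113), and with M1 egg 11 and M3 egg 3 left out, an alternative chosen after the data were seen, it was 5.76 ± 1.59 (adjusted p = 0.0145). DESeq2 gave 5.66 ± 1.24 (adjusted p = 8.67e-05), and without the M3 sum of batch 1, which holds egg 3, the fold was 6.98 (edgeR adjusted p = 6.48e-04), and without that of batch 2 it was 6.95 (adjusted p = 2.27e-05). Other alternatives lowered it: it was 3.59 ± 1.63 without M1 eggs 6, 11 and 21 (adjusted p = 0.147), 2.95 ± 2.00 without the M1 sum of batch 1 (adjusted p = 0.396), and 3.39 and 3.46 without the wildtype sum of batch 1 or of batch 2 (adjusted p = 0.299 and 0.278). Over 17 alternatives it ran from 2.95 to 6.98 and was called in 5. The direction was not shared by all groups, since the raw Inha sum of M3 was 5.03 CPM in batch 1 and 1.61 in batch 2. By eggs with a count, Inha was in 3 of 14 in batch 1 and 21 of 93 in batch 2. In mutant against wildtype its fold was 2.49 ± 1.62 (adjusted p = 0.428), 1.45 ± 1.498 without the 3 M1 eggs (adjusted p = 0.651), -0.012 without M1 egg 11 and M3 egg 3, and was called only without the M3 sum of batch 2 (3.496 ± 1.17, adjusted p = 0.0462). The raw Inha sums were 0 in wildtype of batch 1 and 1.66 CPM in wildtype of batch 2, beside 7.95 in M1 (0.925 without eggs 11 and 21), 1.63 in M2, 1.61 in M3 and 0.814 in activated eggs.

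Of 13 inhibin and activin genes, 12 were tested, and after activation 2 fell, both of them activin receptors: Acvr2a (-2.55 ± 0.69, edgeR adjusted p = 0.0211) and Acvr1b (-1.51 ± 0.48, adjusted p = 0.0441). Over all genes 7.33% fell after activation, and this list is too small to be set apart from that share. The most abundant gene of that list, the signal transducer Smad3, was at 523 to 761 raw CPM in the 9 sums, and its transcripts were in most eggs. In the anti-Mullerian hormone pathway the receptor gene Amhr2 had counts beside the ligand in M3 eggs 3 (44) and 12 (4), and 54 in M1 egg 11 with no Amh.

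Cyp11a1, which starts steroid synthesis by cutting the side chain of cholesterol, had 265 counts in all, 172 of them in M1 egg 11, where they were 174 CPM. The next eggs were wildtype eggs 2 and 3 of batch 1 with 18 and 14 counts, at 2.12 and 1.79 CPM in these deep libraries. In batch 2 its raw sums were 0 CPM in wildtype, 17.4 in M1, 1.25 in M2, 0.382 in M3 and 0.592 in activated eggs. M1 egg 11 held 95.6% of the M1 sum. The floor of 3 counts in wildtype eggs of batch 2 is 0.552 CPM, so most of these sums lie near what that depth can show.

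Of the cumulus expansion genes, Has2, which makes hyaluronan, had 62 counts in 19 eggs, with 22 in M3 egg 8. In batch 1, where libraries were deep, 7 of 14 eggs held Has2, each at 0.766 CPM or less. In batch 2, 12 of 93 eggs did, among them wildtype egg 41 with 6 counts (35.6 CPM). Tnfaip6, which links proteins to hyaluronan, had 6 counts, all in activated egg 7. Ptx3, which stabilises that matrix, had 0 counts in all 107 eggs, which allows at most 0.0829 to 0.552 CPM over the 9 sums. Fshr, the receptor for follicle-stimulating hormone, had 6 counts, 4 in activated egg 7 and 1 each in activated eggs 11 and 14, and 0 in the other groups. Among the 16 cumulus expansion genes, 5 were at 0 in every egg: Ptx3, Hapln1, Itih1 and the EGF-like signals Areg and Ereg.

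Single eggs with many counts of rare members differed in which genes they held. M1 egg 11 held 362 counts of Serpine2, 80 of Cyp19a1, 74 of Inha, 62 of Inhba and 172 of Cyp11a1. It also held 224 of Hsd3b1 and Star at 115.3 CPM, which act beside Cyp11a1 in making progesterone, 54 of Amhr2, 24 of the gap junction gene Gja1 and 7 of Lhcgr, the receptor for luteinizing hormone. At 760 CPM its member sum was the highest of 104 eggs. Its counts of Amh, Nr5a1, Esr2, Wt1 and Foxl2 were 0.

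M3 egg 3 showed another set. It held Amh at 16.2 CPM and Inha at 14.8 CPM with 0 counts of Inhba and Cyp11a1. It also held 195 counts of Gja1, 44 of Amhr2, 42 of Inhbb, 32 of Hsd17b1, which finishes estradiol synthesis, 17 of Nr5a1 and 13 of Wt1. With 15 of 28 other granulosa and cumulus genes counted it had the most of any egg (median 6). Its library was deep, at 7031161 counts against a median of 686943 over the 104 eggs. The shallower M3 eggs 8 and 12, of 490016 and 745504 counts, held 14 and 13 of these genes. M3 egg 12 of batch 2, the shallower library, held counts of some of the same genes: Amh 10, Inha 7, Gja1 19, Wt1 5, Nr5a1 5 and Amhr2 4. In CPM egg 12 was nearer to egg 3, with Amh at 13.4 against 16.2 and Inha at 9.39 against 14.8. Gja1 was at 25.5 against 27.7, Amhr2 at 5.37 against 6.26 and Nr5a1 at 6.71 against 2.42. Egg 12 differed in holding 0 of Inhbb and Hsd17b1 and 1 each of Inhba and Cyp11a1. Inhbb and Hsd17b1 were at 5.97 and 4.55 CPM in egg 3, and the part of depth in their absence from egg 12 was not tested. These sets were picked after their values were seen and carry no test.

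**Figure D4:**
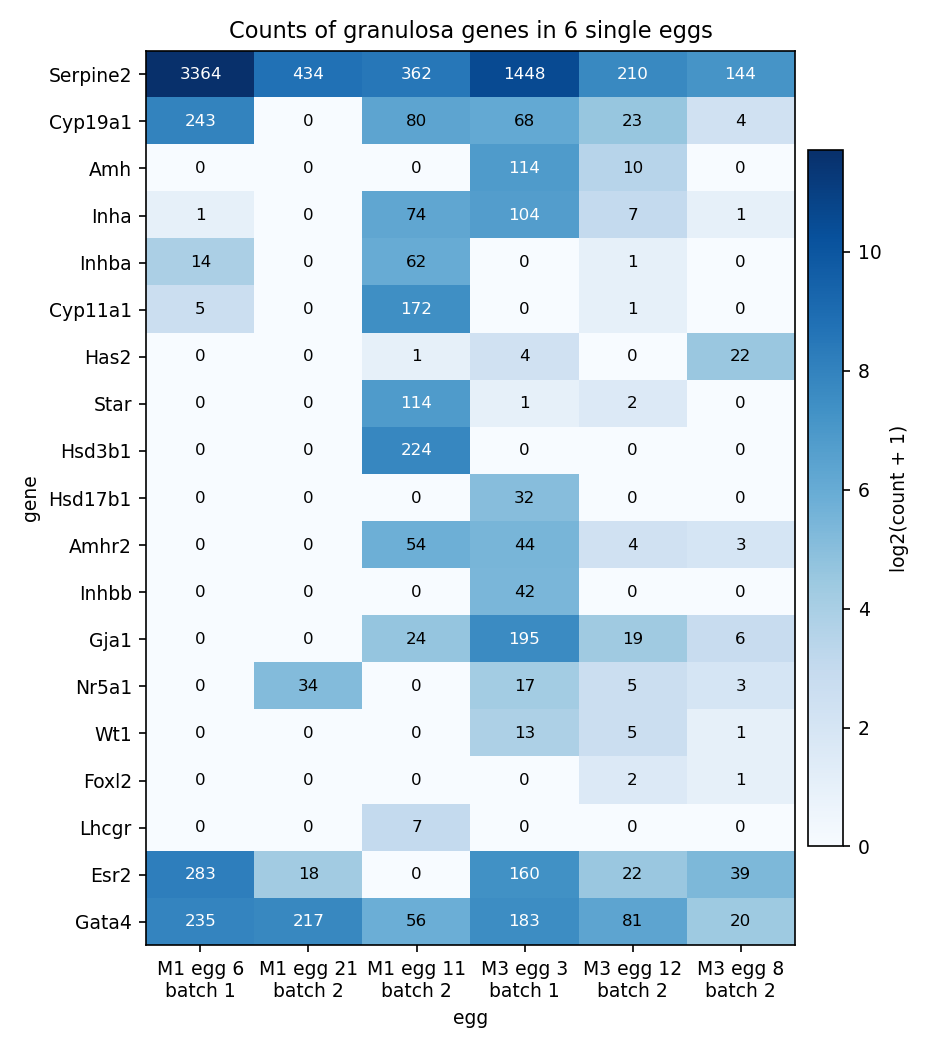
Counts of 19 granulosa genes (rows) in 6 eggs chosen after their values were seen (columns), shaded by log2(count + 1). M1 egg 11 holds Cyp11a1, Star and Hsd3b1, M3 eggs 3 and 12 hold Amh, Gja1 and Wt1, and M1 egg 21 holds Serpine2 but none of the other members.

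M1 eggs 21, 6 and 13 held the highest Serpine2 levels of the 104 eggs, at 638, 547 and 529 CPM, with wildtype egg 41 next at 498. M1 egg 6 held 3364 counts of Serpine2 (547 CPM) and 243 of Cyp19a1 (39.5 CPM), the most of any egg for both in counts, beside 14 of Inhba, 5 of Cyp11a1 and 1 of Inha. M1 egg 21 held 434 counts of Serpine2 (638 CPM) and 0 of each other member, Cyp19a1 included, with 34 of Nr5a1. M1 egg 13, on plate 1 of batch 2, likewise held 0 of each other member beside 161 counts of Serpine2. The oocyte markers of eggs 6 and 21 together were at 19990 and 15740 CPM, above the median egg (9015), and so were those of M1 egg 11 (13560).

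Markers of other ovarian cells were counted in the same eggs. The theca and stroma markers were at 0 in 53 of 104 eggs, 4 of 11 (Insl3, Col1a2, Lum and Mgp) were at 0 in every egg, and the sums per group ran from 0.552 to 11.01 CPM. Of the blood markers 6 of 11 were at 0 in every egg, Ptprc and Hbb-bt among them, and sums ran from 3.22 to 29.3 CPM, nearly all Laptm5. Surface epithelium markers summed to 2.27 to 8.92 CPM, with Krt19 at 0. Endothelial markers summed to 55.6 to 158 CPM, most of it Pecam1, with Emcn at 0. By edgeR, 0 of 2 theca and stroma, 0 of 2 blood and 0 of 4 surface epithelium markers tested were called in mutant or activated eggs, and 1 of 5 endothelial ones was, Vwf, higher in both. Over all genes 9.38% were called in mutant and 13% in activated eggs, and such small lists cannot be set apart from these shares. In batch 2, plate cannot be told apart from genotype or treatment in these comparisons. Vwf had 6 counts in wildtype eggs of batch 1, 0 in those of batch 2 and 107 in activated eggs. M3 egg 8, which held the most Has2, had 233 CPM of theca and stroma markers (4 of 11 counted), 110 of surface epithelium and 108.2 of blood markers, against medians of 0, 3.31 and 12.9 per egg. M1 egg 11 had 2.02 CPM of theca and stroma, 20.2 of surface epithelium and 30.3 of blood markers, and 0 of endothelial ones. The part of such cells in the members' counts was not tested.

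Of the 28 other granulosa and cumulus genes, 5 were in most eggs: Nr5a2, Kitl, Esr2, Gata4 and Runx2. Gata4, a transcription factor of granulosa cells, was at 36.4 to 91.8 raw CPM in the 9 sums. Esr2, the estrogen receptor of granulosa cells, was at 17.9 to 82.6 CPM and was higher in batch 2 by 1.27 ± 0.23 (edgeR adjusted p = 0.00111). These 2 genes were spread over eggs as Serpine2 and Cyp19a1 were. The others were in fewer eggs, and Areg and Ereg in none.

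Serpine2 and Cyp19a1 did not follow each other closely from egg to egg. Pearson's r of log2(CPM + 1) was 0.45 over 14 eggs of batch 1 and -0.087 over 83 eggs of batch 2 with at least 100000 counts. The summed level of the 10 members was in effect that of Serpine2 (r of 0.99 and 0.98). The 5 genes most like that sum, of 10809 genes, by the mean r over both batches, were Dnttip2 (0.75), Cd164l2 (0.71), Cnbp (0.70), Nup107 (0.69) and Arfip1 (0.69), none of them in a granulosa list. Eggs of a group share plates and depth, and the points of batch 2 include the activated eggs, in which each of these 5 genes was lower than in the other sums of its batch. Dnttip2 was at 27.8 CPM in activated and 144.01 in wildtype eggs of batch 2, and Cnbp at 140.3 and 477.

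**Figure D5:**
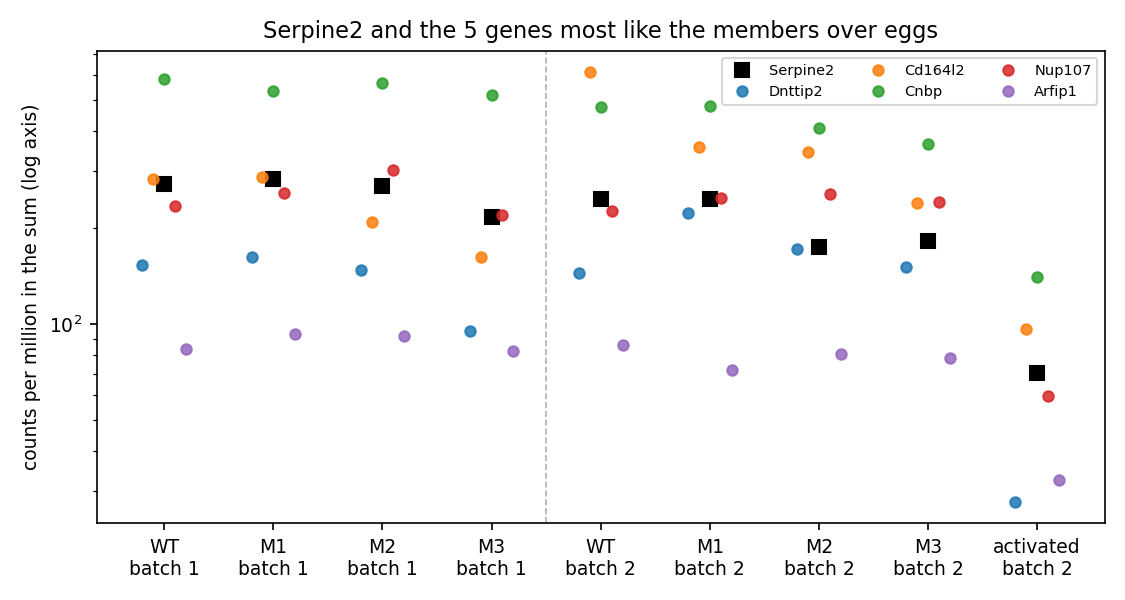
Raw CPM (log axis) in the 9 sums per group and batch for Serpine2 (squares) and the 5 genes whose levels over eggs were most like the members' sum (circles). Each gene is lowest in the activated sum, where Serpine2 is at 70.3 CPM.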

How the data were processed

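The deposited values are whole-number counts per gene for 107 eggs. STAR and HTSeq made them with GRCm38 and mm10 as builds, per the submitters' processing notes, which as used here hold no version, annotation or strand setting. Of the gene symbols, 88.9% were found in GENCODE M21 (GRCm38), used for positions and exon lengths.

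Members and gene lists were chosen with earlier results of these data known. Eggs are tied to no animal by the labels and were not taken as replicates. Their counts were added up by group and batch (9 sums, 3 residual degrees of freedom) or by mutant group and plate (9 sums, 4). The p-values measure only the spread between these sums, which may be technical. Plates come from library names. edgeR 4.0.16 (R 4.3.3) was used with TMM scaling, its expression filter at a minimum count of 10, a batch or plate term, robust quasi-likelihood F tests and Benjamini-Hochberg adjustment over all genes tested (threshold 0.05), and was tested on simulated data. Standard errors were taken from the fold and its F value. Poisson intervals are exact at 95%. The floor for a count of 0 is 3 counts.

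The text names all members, from each list the called genes of lowest p (at most 3) or, with no call, the most abundant gene, and the 5 genes most like the members' sum, among genes in at least 25% of eggs of each batch. Other genes and single eggs were named after their values were seen. The alternatives tried were other scalings (RLE, upper quartile), no filter, DESeq2 1.42.0, eggs thinned to 60000 counts, eggs or sums left out and no batch or plate term. Those that leave out M1 egg 11 and M3 egg 3, or the 9 wildtype eggs whose 50 most abundant genes held over 35% of counts, and the ratio of medians, were chosen after seeing the data.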

Additional observations from a re-analysis of the deposited data

Results flagged for a closer look

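In wildtype eggs of batch 1, egg 1 stood apart for Has2, at 0.766 CPM where the other 4 held 0 to 0.123, which were 2 counts in that egg. In M1 eggs of batch 1, egg 6 stood apart for Cyp19a1, at 39.5 CPM where the other 3 held 5.48 to 9.79. Both are samples whose gap to the rest of their group passed Dixon's 95% limit. There were 10 such tests, of which 2 passed, and chance passes about 1 in 20.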

How the results depend on the processing

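The activation call of Serpine2 held under 17 of 18 alternatives (log2 folds -2.20 to -1.53) and was lost without a batch term, where 0 members were called. For batch, 2 members were called without the filter, with DESeq2 and without M1 egg 11 and M3 egg 3 (Cyp19a1 and Inha each time), and 0 with thinned eggs. Leaving out single sums gave 0 to 2 there and 0 to 1 for mutants. Between mutant groups 1 member was called for M2 against M1 without the filter (Inhba) and with DESeq2 (Cyp19a1), and 1 for M3 against M1 without the filter (Cyp11a1). The cause was not tested. The fold of Cyp19a1 in M3 against M1, -0.0098, changed sign to 0.63 without M1 eggs 6, 11 and 21, 0.38 without M1 egg 11 and M3 egg 3, and 0.067 with no plate term, and ran from -0.18 to 0.21 with single sums left out. No paired analysis was possible because replicate numbers name eggs and the sums carry none, so nothing pairs by number. Batch is a term of the fits against wildtype, which hold no plate term. In batch 2 the wildtype and the activated eggs each had a plate that no other group shared. Plate is a term only of the fits between mutant groups, which shared their plates. Depth limits the rare members, most of which had fewer than 20 counts per sum.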
